A study of Mus musculus with 6 samples.

Results

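Contractile and actin-crosslinking genes were followed in a mouse skin squamous carcinoma line after knock-down of the secreted ligand netrin-1 (Ntn1) or of its receptor Unc5b. The set held 9 genes, taken by symbol from a deposited table of 49671 genes: Acta2, Tagln, Cnn1, Tpm1, Tpm2, Myl9, Actn1, Flna and Flnc. The groups, each of 2 RNA-seq libraries, were a knock-down of Ntn1 (KDNTN1), a knock-down of Unc5b (KDUNC5B) and the TRC1 empty vector (EmptyVector). Every group came from a single epithelial line, LKPR EPCAM+, with Lgr5CreER, p53fl/fl and Rosa26-YFP among its alleles. The Lgr5 promoter is known to drive Cre in hair follicle stem cells. Every group also carried the lentiviral vector pLKO.1-puro with its puromycin resistance, and was grown for 6 days before living single YFP+ and EPCAM+ cells were sorted. The sources used here do not say how many hairpins were used per target, nor whether the libraries within a group are separate cultures. The p-values below therefore reflect only how far these libraries lie apart, and that distance may be technical.

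Actin filaments are built from actin isoforms, and smooth muscle cells and activated fibroblasts use the alpha-smooth muscle isoform, Acta2, together with transgelin, calponin and myosin light chain. Tropomyosins lie along the filament and control the access of myosin, while alpha-actinins and filamins are elongated dimers that tie filaments to each other and to adhesion sites. Many of these genes are known targets of serum response factor and its actin-sensing cofactors, and several serve as mesenchymal markers when epithelial cells undergo an epithelial-to-mesenchymal transition, the process named in the series title.

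Values are the authors' reads scaled to 20 M per library and are called scaled reads. Depth, estimated from the spacing of low values, was 6.54 to 8.41 M reads in KDNTN1 cells, 8.64 to 9.36 M in KDUNC5B cells and 8.75 to 10.2 M in EmptyVector cells, so that 3 reads were worth 5.90 to 9.17 scaled reads. Ntn1 had 359 and 431 scaled reads in KDNTN1 cells, 1319 and 771 in KDUNC5B cells and 1566 and 2588 in EmptyVector cells. Unc5b had 2311 and 2382 scaled reads in KDNTN1 cells, 419 and 352 in KDUNC5B cells and 1527 and 1573 in EmptyVector cells. Each targeted gene was lowest in its own knock-down, by 5.26-fold for Ntn1 (limma adjusted p = 0.00162) and 4.02-fold for Unc5b (limma adjusted p = 0.000252) against EmptyVector cells. The epithelial label fitted the markers, with 14 of 14 epithelial markers at a mean of 20 or more scaled reads. Epcam, for which the cells were sorted, is among them. The 14 markers summed to 80573 and 77039 in KDNTN1 cells, 68843 and 71685 in KDUNC5B cells and 70469 and 69120 in EmptyVector cells. Single markers moved apart. In KDNTN1 against EmptyVector cells 2 were called higher and 3 lower (limma adjusted p under 0.05), beside 8.04% and 7.06% of all tested genes. Krt5 was higher (1034 and 1027 against 287 and 320 scaled reads) and Trp63 lower (33 and 31 against 94 and 96).

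Flnc, which encodes filamin C, was the member that differed most between the groups. It was higher in KDNTN1 cells and lower in KDUNC5B cells than in EmptyVector cells. For Flna and Actn1, both KDNTN1 libraries lay above the 4 others. The 250 bases before and 10 after the outermost RefSeq start of these 3 genes are therefore shown (GRCm38.p6, RefSeq, each on the strand of its gene). Each ends earlier where an annotated GENCODE exon of the gene begins. Capitals mark the M-CAT motif, CATTCC or its complement GGAATG, to which TEAD factors are known to bind. The Flnc window is chr6:29432903-29433162 on the plus strand, the Flna window is chrX:74246556-74246784 on the minus strand and the Actn1 window is chr12:80260372-80260613 on the minus strand.
Flnc: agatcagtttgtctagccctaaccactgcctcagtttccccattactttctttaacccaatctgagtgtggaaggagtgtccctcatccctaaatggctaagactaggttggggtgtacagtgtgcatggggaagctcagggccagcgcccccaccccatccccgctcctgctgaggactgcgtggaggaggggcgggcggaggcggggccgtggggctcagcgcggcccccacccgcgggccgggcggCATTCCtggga
Flna: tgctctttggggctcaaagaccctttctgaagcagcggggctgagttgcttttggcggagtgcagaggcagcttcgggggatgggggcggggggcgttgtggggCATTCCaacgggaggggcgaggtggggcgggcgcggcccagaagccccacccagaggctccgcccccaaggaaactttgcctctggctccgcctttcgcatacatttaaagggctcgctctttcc
Actn1: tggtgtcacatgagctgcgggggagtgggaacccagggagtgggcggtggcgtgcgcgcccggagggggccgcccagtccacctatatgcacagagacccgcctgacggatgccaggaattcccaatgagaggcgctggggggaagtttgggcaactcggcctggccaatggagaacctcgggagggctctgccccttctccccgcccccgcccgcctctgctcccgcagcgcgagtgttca
The motif began 1 base before the RefSeq start in the Flnc window and 146 bases before it in the Flna window, and these letters are not in the Actn1 window. Flnc has a further RefSeq start downstream, and the motif lies 104 bases before that start. The Flna window lies downstream of a further annotated first exon of Flna. Over windows of 250 bases before to 50 after each start, 4 of the 8 members with a window held the motif on either strand (Acta2, Flna, Flnc and Tpm1), against 4481 of 27025 genes (16.6%). The CArG box, the site of serum response factor, was searched in the same windows only as an exact CCWWWWWWGG, where W is A or T. This exact form was found in 1 of these 8 members (Myl9) and in 488 of 27025 genes (1.81%). Sites that depart from it by a letter, or lie outside the windows, were not searched for, so a member without a match may still hold one. Both motifs were chosen after the sequences had been seen, and a match is a description of letters only.

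The tested members fell into a high and a low range of level. Per kb of exon, KDNTN1, KDUNC5B and EmptyVector libraries averaged 4176, 3148 and 3197 scaled reads for Flna, 2559, 1979 and 1907 for Actn1 and 1636, 1247 and 1614 for Tpm1. Tpm2 averaged 638, 527 and 686 scaled reads per kb in the same order of groups. These 4 genes stood above 89.2% or more of the 15274 tested genes with a known length in the EmptyVector libraries. Flnc and Tagln lay in the low range, at 67.0, 15.2 and 27.3 scaled reads per kb for Flnc and 45.8, 41.2 and 33.2 for Tagln. Acta2 lay there too, at 15.3, 17.3 and 10.5 scaled reads per kb. It was below Flnc and Tagln in KDNTN1 and EmptyVector cells, but above Flnc in KDUNC5B cells. In EmptyVector cells Acta2 stood above only 7.05% of tested genes. Myl9 and Cnn1 had means of 5 and 8 scaled reads over the 6 libraries and were under the filter of 20, so 7 of the 9 members were tested. The smooth muscle markers Acta2, Tagln, Cnn1 and Myl9 thus had low levels per kb, as did Flnc, while Flna, Actn1, Tpm1 and Tpm2 had high ones. For Tagln the level per kb is uncertain. Of its 1988 exonic bases 1241 overlap an antisense gene, and how reads in that overlap were counted is not known. In bulk RNA, fewer cells that express a gene and less RNA per cell cannot be told apart.

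**Figure D1:**
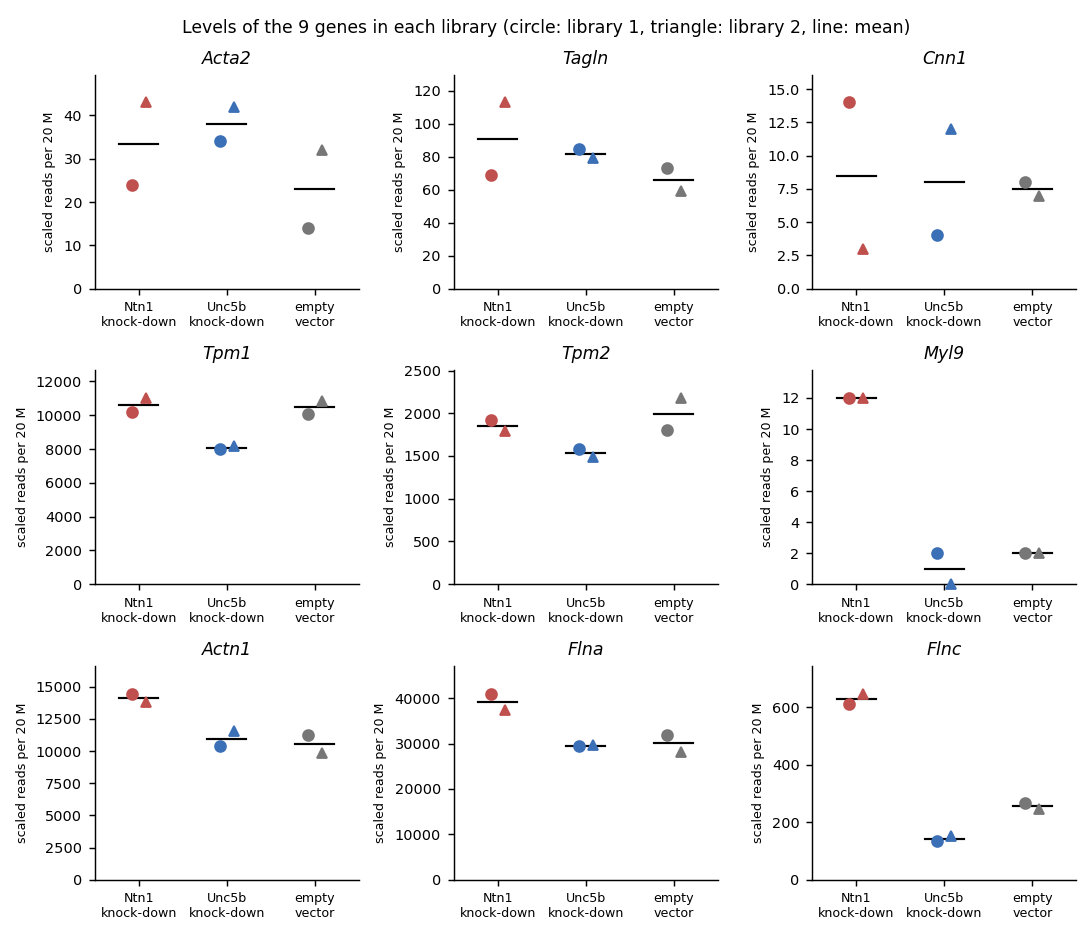
Scaled reads of the 9 members (y axis, linear from 0, 1 panel per gene), with 1 point per library and a line at the group mean, for KDNTN1 cells, KDUNC5B cells and EmptyVector cells. Flnc points form 3 separate levels, at 611 and 648, 135 and 151, and 267 and 247, while Acta2, Cnn1 and Myl9 lie at or under 43.

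The smooth muscle members are the usual markers of a contractile state, and neither of the 2 that could be tested was called in any comparison. Gene positions here and below are on GRCm38 (GENCODE M21). Acta2, the smooth muscle actin (chr19:34241090-34255590, minus strand), had 24 and 43 scaled reads in KDNTN1 cells, 34 and 42 in KDUNC5B cells and 14 and 32 in EmptyVector cells. The KDNTN1 and EmptyVector libraries overlapped, while both KDUNC5B libraries lay above both EmptyVector libraries. These values rest on an estimated 7 to 18 reads per library. The log2 fold change was 0.49 (95% interval -0.52 to 1.50, limma adjusted p = 0.499) in KDNTN1 cells against EmptyVector cells. In KDUNC5B cells it was 0.69 (95% interval -0.32 to 1.70, limma adjusted p = 0.362), so neither passed the test. Intervals as wide as these leave changes of more than 2-fold within reach in either comparison.

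Tagln encodes transgelin, an actin-binding protein of the calponin family that marks early smooth muscle differentiation. Tagln (chr9:45929619-45936058, minus strand) had 69 and 113 scaled reads in KDNTN1 cells, 85 and 79 in KDUNC5B cells and 73 and 59 in EmptyVector cells. The KDNTN1 libraries were the farthest apart, spanned those of KDUNC5B cells and overlapped those of EmptyVector cells. Its log2 fold change was 0.40 ± 0.30 (SE, limma adjusted p = 0.416) in KDNTN1 cells and 0.30 ± 0.30 (SE, limma adjusted p = 0.58) in KDUNC5B cells against EmptyVector cells. The annotated exons of Tagln share 1241 of 1988 bases with the antisense gene Gm48529, which was listed at 52 and 58 scaled reads in KDNTN1 cells, 58 and 49 in KDUNC5B cells and 61 and 43 in EmptyVector cells. Because the strand setting is not given in the sources used here, reads of Tagln and Gm48529 cannot be told apart. A further 108 exonic bases overlap Pcsk7.

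Cnn1, or calponin 1, inhibits the myosin ATPase on smooth muscle thin filaments. Cnn1 (chr9:22099216-22109630, plus strand) had 14 and 3 scaled reads in KDNTN1 cells, 4 and 12 in KDUNC5B cells and 8 and 7 in EmptyVector cells. These values lie around the worth of 3 reads, with overlapping libraries in the knock-down groups. Myl9, the smooth muscle regulatory light chain whose phosphorylation switches on myosin (chr2:156775420-156781658, plus strand), had 12 and 12 scaled reads in KDNTN1 cells, 2 and 0 in KDUNC5B cells and 2 and 2 in EmptyVector cells. Both KDNTN1 libraries were above all others, on an estimated 5 and 4 reads against 1 and 0 in KDUNC5B cells and 1 and 1 in EmptyVector cells. At this depth neither a change in Cnn1 nor its size in Myl9 was measurable, and no fold is given.

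Markers of muscle and of stromal cells were read beside these genes. Kcnmb1, Des and Abcc9 were at 0 in all 6 libraries, Myh11 (smooth muscle myosin heavy chain) was at 5 to 18 scaled reads, and 2 of the 13 smooth muscle and pericyte markers, Notch3 and Synm, reached a mean of 20. This list summed to 1044 and 1176 scaled reads in KDNTN1 cells, 1054 and 575 in KDUNC5B cells and 297 and 599 in EmptyVector cells. Most of the sum was Notch3, at 904 and 1027, 949 and 486, and 171 and 430 scaled reads in the same order. Synm had 71 and 73 scaled reads in KDNTN1 cells, 77 and 58 in KDUNC5B cells and 94 and 135 in EmptyVector cells. Its libraries in both knock-downs lay below those of EmptyVector cells, but it was called in neither comparison. The sum was higher in both KDNTN1 libraries than in EmptyVector cells through Notch3, while the sums of KDUNC5B and EmptyVector cells overlapped. Their part in the values of Acta2, Tagln and Myl9 was not tested. Fibroblast markers, 3 of 10 at a mean of 20 or more, summed to 287 and 198 scaled reads in KDNTN1 cells, 256 and 163 in KDUNC5B cells and 161 and 204 in EmptyVector cells, with Dpt at 0 throughout. Of 8 endothelial markers 2 reached that mean, Emcn was at 0 in all 6 libraries, and the list summed to 192 and 238, 100 and 104, and 108 and 101 scaled reads in the same order of groups. Cdh5, an endothelial cadherin, had 86 and 113 scaled reads in KDNTN1 cells, 2 and 0 in KDUNC5B cells and 0 and 0 in EmptyVector cells. Pecam1, the other endothelial marker at that mean, had 90 and 107, 96 and 88, and 104 and 94 scaled reads in the same order, with overlapping libraries. The higher endothelial sum in KDNTN1 cells thus came mostly through Cdh5. Among 8 immune markers 3 reached that mean, Lyz2 was at 0, and the sums were 646 and 773, 1842 and 1258, and 1432 and 1679 scaled reads in the same order of groups. Most of that sum was Csf1r, at 347 and 443 scaled reads in KDNTN1 cells against 1213 and 1511 in EmptyVector cells. Cd14 (190 and 202 against 134 and 137) and Cd68 (107 and 122 against 81 and 25) were instead higher in both KDNTN1 libraries, but neither was called.

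The tropomyosin members Tpm1 (chr9:67022590-67049406, minus strand) and Tpm2 (chr4:43514711-43523765, minus strand) had their lowest values in KDUNC5B cells, at differences that did not pass the test. Tpm1 had 10201 and 11020 scaled reads in KDNTN1 cells, 7996 and 8181 in KDUNC5B cells and 10082 and 10847 in EmptyVector cells. The KDNTN1 and EmptyVector libraries overlapped, and both KDUNC5B libraries lay below all 4 others. Against the empty vector, Tpm1 was 1.29-fold lower in KDUNC5B cells (log2 fold change -0.37 ± 0.10, SE) and missed the threshold at a limma adjusted p of 0.0519. This value passed with TMM scaling (0.0499), with median-of-ratios scaling (0.0434) and without EmptyVector library 1 (0.0406). In KDNTN1 cells the log2 fold change of Tpm1 was 0.02 (95% interval -0.21 to 0.25, limma adjusted p = 0.919). Tpm2, which encodes beta-tropomyosin, had 1919 and 1792 scaled reads in KDNTN1 cells, 1577 and 1489 in KDUNC5B cells and 1810 and 2179 in EmptyVector cells. Again both KDUNC5B libraries lay below the others, at a log2 fold change of -0.37 ± 0.13 (SE, limma adjusted p = 0.106) against EmptyVector cells, which passed the test only without EmptyVector library 1 (limma adjusted p = 0.034). The Tpm1 to Tpm2 ratio was 5.32 and 6.15 in KDNTN1 cells, 5.07 and 5.49 in KDUNC5B cells and 5.57 and 4.98 in EmptyVector cells, with overlapping libraries throughout.

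The other tropomyosin genes did not pass the test in any comparison. Tpm3 had 8993 and 8966 scaled reads in KDNTN1 cells, 10169 and 10842 in KDUNC5B cells and 11112 and 8243 in EmptyVector cells. Tpm4 had 15130 and 13870, 12480 and 15169, and 15565 and 14629 scaled reads in the same order. None of the 4 tested genes of the tropomyosin and tropomodulin list outside the members was called in any of the 3 comparisons.

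Alpha-actinin 1, encoded by Actn1, crosslinks actin filaments in stress fibres and at adhesion sites. Actn1 (chr12:80167547-80260371, minus strand) had 14473 and 13843 scaled reads in KDNTN1 cells, 10375 and 11526 in KDUNC5B cells and 11279 and 9825 in EmptyVector cells. Both KDNTN1 libraries were above all 4 others, while the KDUNC5B and EmptyVector libraries overlapped. Against the empty vector, Actn1 was 1.34-fold higher in KDNTN1 cells (log2 fold change 0.43 ± 0.11, SE, limma adjusted p = 0.0396). This call was kept under 4 of 13 alternatives, and among the losses were those without KDNTN1 library 1 (0.259) or 2 (0.197), KDUNC5B library 1 (0.052) or 2 (0.0525) or EmptyVector library 2 (0.119), and with TMM scaling (0.0572), no filter (0.104) or no variance trend (0.134). In KDUNC5B cells Actn1 had a log2 fold change of 0.05 (95% interval -0.21 to 0.32, limma adjusted p = 0.809). The antisense genes Gm47766 and Gm47767 share 363 and 88 of the 5533 exonic bases of Actn1.

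The paralog Actn4 was lower in KDNTN1 cells. Actn4, which encodes a second non-muscle alpha-actinin, had 5226 and 4813 scaled reads in KDNTN1 cells, 7241 and 6937 in KDUNC5B cells and 8221 and 9066 in EmptyVector cells. All 3 groups were separate, with KDNTN1 cells lowest and EmptyVector cells highest. It was 1.72-fold lower in KDNTN1 cells than in EmptyVector cells (log2 fold change -0.78 ± 0.11, SE, limma adjusted p = 0.00245). That call was lost without KDNTN1 library 2 (0.0564). In KDUNC5B cells Actn4 did not pass the test (log2 fold change -0.28, limma adjusted p = 0.13). Exons of Actn4 overlap those of Capn12. The muscle alpha-actinins were not detected above background, with Actn2 at 0 in all 6 libraries and Actn3 at 0 to 2 scaled reads.

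Filamin A, encoded by Flna, joins actin filaments into orthogonal networks and links them to integrins. Flna (chrX:74223461-74249820, minus strand) had 41054 and 37449 scaled reads in KDNTN1 cells, 29420 and 29761 in KDUNC5B cells and 31841 and 28259 in EmptyVector cells. Both KDNTN1 libraries stood above all 4 others, and the EmptyVector libraries spanned those of KDUNC5B cells. The 1.31-fold difference between KDNTN1 and EmptyVector cells (log2 fold change 0.39 ± 0.11, SE) missed the threshold at a limma adjusted p of 0.0516, and passed without EmptyVector library 1 (0.0306). For KDUNC5B cells the log2 fold change was -0.02 (95% interval -0.27 to 0.24, limma adjusted p = 0.935). The ratio of Flna to Actn1 scaled reads was 2.84 and 2.71 in KDNTN1 cells, 2.84 and 2.58 in KDUNC5B cells and 2.82 and 2.88 in EmptyVector cells. It was thus within 2.58 to 2.88 in all 6 libraries, and the ratios overlapped between groups.

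Filamin C, the muscle-enriched filamin that sits at Z-discs and myotendinous junctions, gave the clearest separation. Flnc (chr6:29433256-29461883, plus strand) had 611 and 648 scaled reads in KDNTN1 cells, 135 and 151 in KDUNC5B cells and 267 and 247 in EmptyVector cells. No library of one group reached the level of another, and the estimated reads behind these values were 257 and 212, 63 and 65, and 136 and 108. Flnc was 2.45-fold higher in KDNTN1 cells than in EmptyVector cells (629.5 ± 26.2 against 257 ± 14.1 scaled reads, SD, n = 2 each, log2 fold change 1.28 ± 0.17, SE, limma adjusted p = 0.00234). This call held under all 13 alternative settings tried. In KDUNC5B cells it was 1.80-fold lower than in EmptyVector cells (143 ± 11.3 scaled reads, log2 fold change -0.83 ± 0.17, SE, limma adjusted p = 0.0184). That call was kept under 8 of 13 alternatives, and among the losses were those without KDNTN1 library 1 (0.0627) or 2 (0.0623) or KDUNC5B library 1 (0.091) or 2 (0.069). Set directly against each other, Flnc in KDNTN1 cells was 4.40-fold above that in KDUNC5B cells (log2 fold change 2.10, 95% interval 1.71 to 2.50, limma adjusted p = 0.000879), and this call held under all 13 alternatives. No annotated exon of another gene overlaps Flnc. The ratio of Flna to Flnc scaled reads was 67.2 and 57.8 in KDNTN1 cells, 217.9 and 197.1 in KDUNC5B cells and 119.3 and 114.4 in EmptyVector cells, and the ratios did not overlap between groups.

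**Figure D2:**
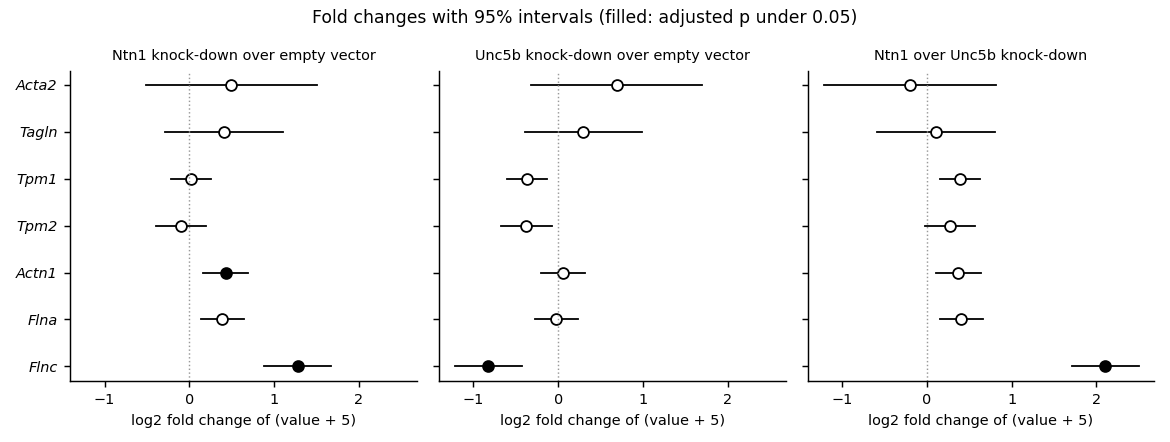
Log2 fold changes of the 7 tested members with 95% intervals (x axis) for KDNTN1 cells against EmptyVector cells, KDUNC5B cells against EmptyVector cells and KDNTN1 against KDUNC5B cells, with filled points for calls at an adjusted p under 0.05. Flnc lies at 1.28, -0.83 and 2.10, Actn1 is called in KDNTN1 cells against EmptyVector cells, and the intervals of Acta2 and Tagln are the widest.

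Counted over the members, 2 of the 7 tested were called higher and 0 lower in KDNTN1 cells against EmptyVector cells (3 and 0 at an unadjusted p under 0.05), where 15.1% of all 15330 tested genes were called, 8.04% higher and 7.06% lower. In KDUNC5B cells 0 of 7 were called higher and 1 lower (0 and 3 at an unadjusted p under 0.05), where 12.0% of tested genes were called, 5.9% higher and 6.07% lower. Between the knock-downs 1 of 7 was called higher in KDNTN1 cells and 0 lower (4 and 0 at an unadjusted p under 0.05), where 7.1% of tested genes were called, 4.15% higher and 2.95% lower. In these comparisons the median log2 fold change of the 7 members was 0.40, -0.02 and 0.37, beside -0.02, 0.04 and -0.05 over all tested genes. Libraries did not overlap for 3 higher and 0 lower members in KDNTN1 cells against EmptyVector cells, beside 28.0% higher and 30.2% lower over all tested genes. For KDUNC5B cells it was 2 higher and 3 lower (28.7% and 23.2% over all tested genes), and between the knock-downs 5 higher and 0 lower (24.4% and 31.3%). With 7 genes, counts of 1 or 2 calls are too few to set the members apart from these backgrounds, and the results are those of single genes. Both comparisons with EmptyVector cells use the same 2 control libraries and are not independent.

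Among the actins outside the members, the cytoplasmic pair that builds non-muscle filaments differed. Actg1, gamma-actin, had 21764 and 20903 scaled reads in KDNTN1 cells, 8569 and 10356 in KDUNC5B cells and 19715 and 18265 in EmptyVector cells. Both KDUNC5B libraries were far below all others, and Actg1 was 2.01-fold lower than in EmptyVector cells (log2 fold change -1.01 ± 0.12, SE, limma adjusted p = 0.0017), a call that held under all 13 alternatives. In KDNTN1 cells its log2 fold change was 0.17 (limma adjusted p = 0.391). Actb, beta-actin, had 113802 and 114424 scaled reads in KDNTN1 cells, 120201 and 131449 in KDUNC5B cells and 106854 and 101190 in EmptyVector cells, and was not called in any comparison. Actg1 and Actb are close paralogs with processed copies in the genome, so the split of reads between them rests on the authors' counting. The muscle actins Acta1 (33 and 58 scaled reads in KDNTN1 cells, 19 and 12 in KDUNC5B cells, 24 and 2 in EmptyVector cells), Actg2 (0 to 2) and Actc1 (0 throughout) also had low values.

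The non-muscle calponins and transgelin 2 had higher levels per kb than Cnn1 and Tagln in all 6 libraries. Cnn2 had 2684 and 2743 scaled reads in KDNTN1 cells, 2819 and 2641 in KDUNC5B cells and 3339 and 4145 in EmptyVector cells, and both knock-downs lay below EmptyVector cells. It was called lower in KDNTN1 cells (log2 fold change -0.46, limma adjusted p = 0.0488), a call kept under 2 of 13 alternatives and lost without either KDNTN1 library (0.266 and 0.235). In KDUNC5B cells its log2 fold change was -0.45 (limma adjusted p = 0.0596). Tagln2 ranged from 4733 to 10695 scaled reads over the 6 libraries and Cnn3 from 4282 to 5426, and neither was called in any comparison.

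**Figure D3:**
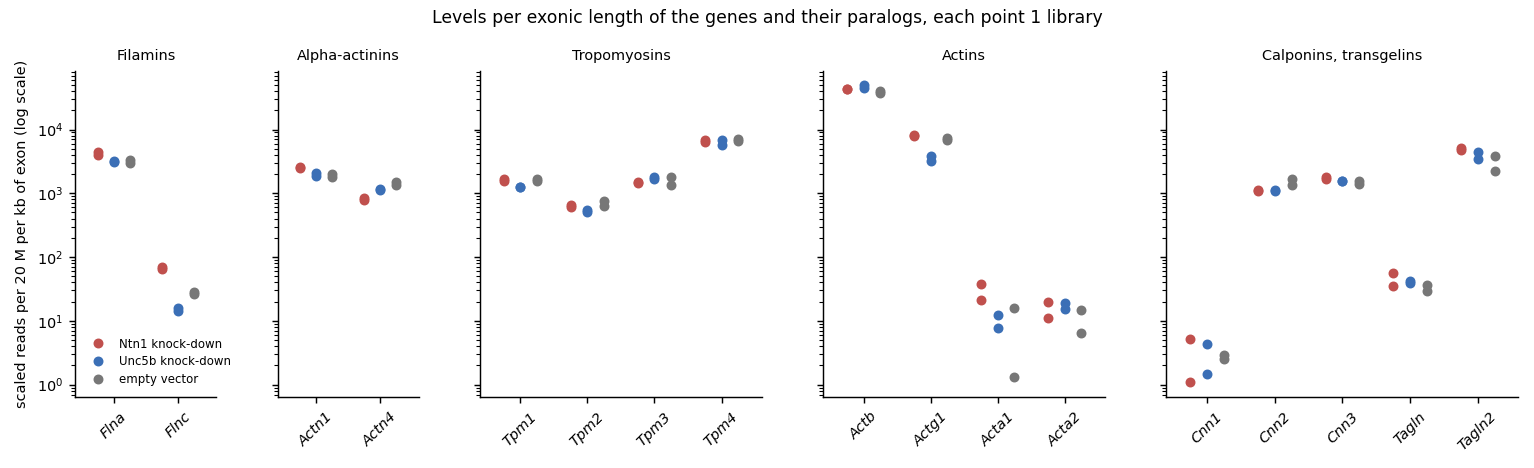
Scaled reads per kb of exon for filamins, alpha-actinins, tropomyosins, actins, calponins and transgelins on a log scale (y axis), with 1 point per library for KDNTN1 cells, KDUNC5B cells and EmptyVector cells. Actg1 is lowest in KDUNC5B cells, Actn4 is lowest in KDNTN1 cells, and Acta1, Acta2, Cnn1 and Tagln lie far below the other genes of their panels.

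Myosin II and its regulators, which pull on these filaments, held 19 tested genes outside the members. For this list and those below, the shares over all tested genes stand beside the counts. They were 8.04% higher and 7.06% lower in KDNTN1 against EmptyVector cells and 5.9% and 6.07% in KDUNC5B against EmptyVector cells. Between the knock-downs they were 4.15% and 2.95%. The medians over all tested genes were -0.02, 0.04 and -0.05. In KDNTN1 cells 6 rose and 1 fell against EmptyVector cells, with a median log2 fold change of 0.15. The highest were Ppp1r12b, a myosin phosphatase targeting subunit (2103 ± 226 against 1037 ± 238 scaled reads, SD, n = 2 each, limma adjusted p = 0.00691), Smtn (log2 fold change 0.54, limma adjusted p = 0.0198) and Rhob (0.52, 0.0298). Ppp1cb, the catalytic subunit of the same phosphatase, was lower (7278.5 ± 450 against 13667 ± 1154 scaled reads, limma adjusted p = 0.00143). In KDUNC5B cells 3 rose and 4 fell, with a median of -0.06. The kinase gene Rock1, whose product phosphorylates the phosphatase and the light chain, fell to 2090.5 ± 27.6 scaled reads in KDUNC5B cells, against 3935.5 ± 2.1 in EmptyVector cells (limma adjusted p = 0.00123), and Rock2 fell with a log2 fold change of -0.57 (limma adjusted p = 0.00807). The small GTPase gene Rhob was higher there, at 2949.5 ± 224 against 1138 ± 117 scaled reads (limma adjusted p = 0.000647). Ppp1r12b was higher in KDUNC5B cells as well as in KDNTN1 cells, at 2193 ± 272 against 1037 ± 238 scaled reads (limma adjusted p = 0.00671). Between the knock-downs 5 were higher and 2 lower in KDNTN1 cells, with a median of 0.18. The number called ranged from 1 to 5 in the first comparison, 3 to 8 in the second and 0 to 9 in the third when single libraries were left out, and was lowest without a library of the knock-down tested.

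The list of other bundling and crosslinking proteins held 16 tested genes. It also took in actin-associated genes of other kinds, such as Msn, Pdlim1, Pdlim5 and Pdlim7, which are part of the counts. In KDNTN1 cells 7 rose and 1 fell against EmptyVector cells, with a median log2 fold change of 0.38. Over all tested genes, 8.04% were called higher and 7.06% lower in this comparison. Dbn1, which encodes drebrin, a side-binding protein of actin filaments, had 2146.5 ± 68.6 scaled reads in KDNTN1 cells and 523 ± 19.8 in EmptyVector cells (SD, n = 2 each, log2 fold change 2.03, limma adjusted p = 0.000126). Synpo (934 ± 80.6 against 305.5 ± 257, limma adjusted p = 0.0402) and the plastin gene Pls1 (189 ± 25.5 against 86 ± 21.2, limma adjusted p = 0.0182) followed, and Pdlim5 was lower (log2 fold change -0.51, limma adjusted p = 0.0263). In KDUNC5B cells 3 rose and 1 fell, with a median of -0.03. Dbn1 was higher there too, at 1677.5 ± 169 scaled reads (log2 fold change 1.67, limma adjusted p = 0.000357), as was Pls1 at 265 ± 24.0 (limma adjusted p = 0.00494). Palld, which encodes the stress fibre protein palladin, fell to 616.5 ± 71.4 scaled reads in KDUNC5B cells, against 1698 ± 700 in EmptyVector cells (limma adjusted p = 0.00942). Between the knock-downs 4 were higher and 0 lower in KDNTN1 cells (median 0.18), led by Palld at 2340.5 ± 71.4 against 616.5 ± 71.4 scaled reads (limma adjusted p = 0.00431). Left-out libraries gave 1 to 7, 3 to 6 and 0 to 6 calls in the 3 comparisons, the fewest each time without a knock-down library. The calls of Dbn1 held under all 13 alternatives in both comparisons with EmptyVector cells.

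Serum response factor, Srf, was lower in both knock-downs. Srf had 886.5 ± 159 scaled reads in KDNTN1 cells, 944 ± 53.7 in KDUNC5B cells and 1587 ± 123 in EmptyVector cells (SD, n = 2 each), with limma adjusted p = 0.00874 and 0.018 for the knock-downs against EmptyVector cells. Of these calls, the first was kept under 12 of 13 alternatives and lost without KDNTN1 library 2 (0.11). The second was kept under 9 of 13 and lost without KDUNC5B library 1 (0.0948) or 2 (0.0797), with no filter (0.0738) and with no variance trend (0.0667). Its cofactor gene Mkl1 was higher in KDNTN1 cells (2218.5 ± 67.2 against 1604.5 ± 104 scaled reads in EmptyVector cells, limma adjusted p = 0.0274), a call kept under 7 of 13 alternatives. Among the losses were those without KDNTN1 library 1 (0.171) or 2 (0.221) or EmptyVector library 1 (0.06), with no filter (0.0536) and with no variance trend (0.088).

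Known targets of this factor outside the members split. Of 20 tested, 6 rose and 5 fell in KDNTN1 cells against EmptyVector cells (median log2 fold change 0.14), and 1 rose and 4 fell in KDUNC5B cells (median -0.28). Srf itself belongs to these 20 and is counted among the genes that fell in both knock-downs. The integrin gene Itga5 rose in both, to 2189.5 ± 74.3 scaled reads in KDNTN1 cells and 1352.5 ± 75.7 in KDUNC5B cells, against 566 ± 11.3 in EmptyVector cells (limma adjusted p = 0.000125 and 0.000658). The matricellular genes Cyr61 and Ctgf and the immediate early gene Fos fell in KDNTN1 cells, with log2 fold changes of -1.72, -1.28 and -1.37 (limma adjusted p = 0.00035, 0.00597 and 0.00182). In KDUNC5B cells Cyr61 was also called lower (log2 fold change -0.72, limma adjusted p = 0.0163), while Ctgf (-0.46, 0.213) and Fos (-0.54, 0.0876) did not pass the test. Thbs1 fell in both knock-downs. It fell to 26893 ± 5899 scaled reads in KDUNC5B cells, against 83638 ± 13064 in EmptyVector cells (limma adjusted p = 0.000885). In KDNTN1 cells it had 41965.5 ± 1258 scaled reads (limma adjusted p = 0.00671). Between the knock-downs 6 were higher and 2 lower in KDNTN1 cells (median 0.31). When single libraries were left out, 3 to 10, 3 to 7 and 0 to 12 of these genes were called in the 3 comparisons, the fewest without a knock-down library. Genes such as Smtn, Myh9, Lima1 and Itga5 stand in more than 1 of these lists and are counted in each.

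Focal adhesion components, the anchors of stress fibres, gave 6 higher and 4 lower of 20 tested in KDNTN1 cells against EmptyVector cells, with a median log2 fold change of 0.10. The shares over all tested genes in this comparison were 8.04% higher and 7.06% lower. Beside Itga5, Lpp (0.93, limma adjusted p = 0.0147) and Tes (0.90, limma adjusted p = 0.00139) rose, while Itgb5 (-1.52, limma adjusted p = 0.0106), Tns3 (-0.68, 0.00839) and the talin gene Tln1 (-0.63, 0.00797) fell. In KDUNC5B cells 1 rose and 3 fell (median -0.18). The adaptor gene Lims1 fell to 1137.5 ± 92.6 scaled reads in KDUNC5B cells, against 2822.5 ± 312 in EmptyVector cells (limma adjusted p = 0.000653). Tns1 and Bcar1 were lower as well (log2 fold changes -1.47 and -0.73, limma adjusted p = 0.0192 and 0.00615). Between the knock-downs 7 were higher and 0 lower in KDNTN1 cells, with a median of 0.25 and with Lims1 (1.56, limma adjusted p = 0.000879), Tes (1.14, 0.00142) and the kindlin gene Fermt2 (1.02, 0.00511) in front. Left-out libraries gave 2 to 10, 3 to 5 and 1 to 8 calls, the fewest in the first and last of these without a KDNTN1 library. Among the genes named from these lists, the calls of Dbn1, Itga5, Cyr61, Fos, Ppp1cb and Tes in KDNTN1 against EmptyVector cells, of Dbn1, Pls1, Itga5, Rhob, Rock1, Thbs1 and Lims1 in KDUNC5B against EmptyVector cells and of Lims1 in KDNTN1 against KDUNC5B cells held under all 13 alternatives. The calls of Thbs1 in KDNTN1 cells and of Cyr61 in KDUNC5B cells were not followed over the alternatives. Each of the other calls named from these lists was lost under at least 1 alternative. Exons of Ppp1r12b, Smtn, Mkl1, Ctgf, Thbs1, Lpp, Tes and Tln1 overlap those of annotated genes on the other strand. Those reads cannot be told apart without the strand setting. Exons of Ppp1cb overlap those of Gm43312 on the same strand, where a strand setting would not separate the reads.

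**Figure D4:**
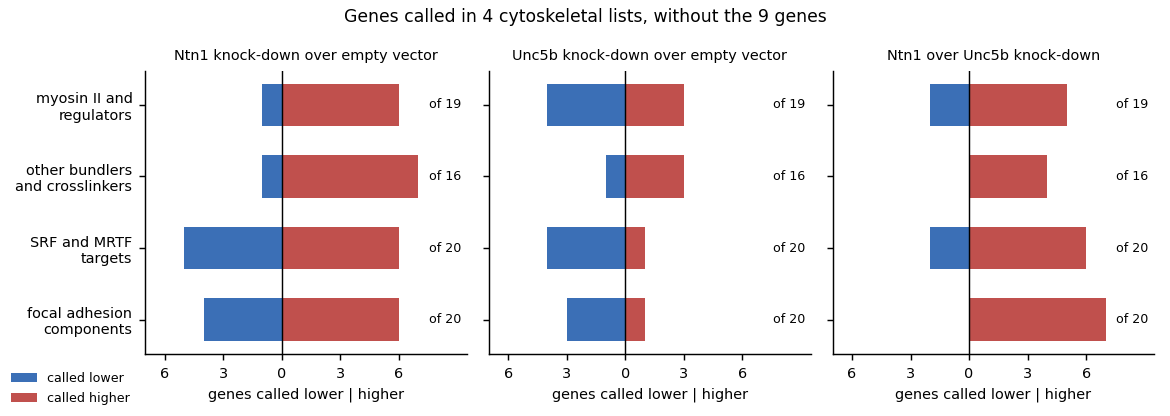
Number of genes called higher (red, to the right of 0) and lower (blue, to the left) at an adjusted p under 0.05 in 4 lists of actin-related genes, members removed, with the number tested at the right, for KDNTN1 cells against EmptyVector cells, KDUNC5B cells against EmptyVector cells and KDNTN1 against KDUNC5B cells. The list of other bundlers and crosslinkers, which also holds actin-associated genes of other kinds, shows 7 higher and 1 lower in KDNTN1 cells against EmptyVector cells. SRF targets show 6 and 5, with Srf itself among the 5. Over all tested genes, the shares called higher and lower were 8.04% and 7.06%, 5.9% and 6.07%, and 4.15% and 2.95% in the order of the panels.

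The tested genes whose centred log2 levels lay nearest to those of a called member were named by the smallest root mean square difference over the 6 libraries. For Actn1 they were Met (0.0366), Slc38a1 (0.0374) and Smek1 (0.0404). For Flnc they were Pmepa1 (0.196), Kif5c (0.197) and Ksr2 (0.199). These differences are not scaled to the size of a gene's changes, which were larger for Flnc than for Actn1. They therefore do not rank how closely each member was followed. Pmepa1, an inhibitor of TGF-beta signalling, had 4344 and 4235 scaled reads in KDNTN1 cells, 1274 and 1290 in KDUNC5B cells and 2113 and 2405 in EmptyVector cells. Kif5c, a kinesin heavy chain gene, had 416 and 376, 85 and 88, and 187 and 217 scaled reads in the same order. As for Flnc, no library of one group reached the level of another in either gene. Both were chosen by their likeness to Flnc over these same libraries, so this separation follows from the choice and is not a separate observation.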

How the data were processed

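The authors deposited 1 table with a column per library, which was treated as a score. Its whole numbers total about 20 M per column and are therefore scaled and rounded values, not raw counts. Reads were processed with STAR, Picard and HTSeq on GRCm38 (mm10), per the submitters' processing notes. Annotation, strand setting, duplicate handling and the scaling method were not given in the sources used here. Positions, exon lengths and overlaps came from GENCODE M21, which held 49326 of the 49671 identifiers. Tests used log2(value + 5) for 15330 genes whose mean was 20 or more, with 3 groups in a single fit (limma 3.58.1, R 4.3.3, variance trend, 3 residual and 5.33 prior degrees of freedom). They were 2-sided with Benjamini-Hochberg adjustment within each comparison, and an adjusted p under 0.05 was called. Fold values are ratios of group means as deposited, while log2 fold changes include the 5, which understates changes of low genes. Depth was the total divided by the step on which values up to 150 lie within 0.5. A step close to 2 lets many whole numbers fit by chance, and both depth and the 3-read floor cover counting error only. Permuting 2 against 2 libraries exactly cannot go below p = 0.333, so no such test was used. The fit was tested on simulated data. The members and lists were chosen with earlier results of these data known. The genes named were all members, measured paralogs, up to 3 called genes with the largest changes in each direction of every other list, the 3 nearest genes of each called member, and the targeted genes. Some items that this rule covers are not reported here. Single marker genes were named after their values were seen. Alternatives were pseudocounts of 1 and 20, no filter, TMM and median-of-ratios scaling, no variance trend, a replicate block and each library left out.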

Additional observations from a re-analysis of the deposited data

Results flagged for a closer look

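Flnc was the 1 member called between the knock-downs themselves, where 1088 of the 15330 tested genes were called. It had 611 and 648 scaled reads in KDNTN1 cells, 135 and 151 in KDUNC5B cells and 267 and 247 in EmptyVector cells, so it lay above EmptyVector cells in one knock-down and below them in the other. The direct comparison of KDNTN1 with KDUNC5B cells gave a log2 fold change of 2.10 (limma adjusted p = 0.000879), higher in 2 of 2 KDNTN1 libraries.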

How the results depend on the processing

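The main fit was set beside 13 alternatives. Genes called numbered 2314 in KDNTN1 against EmptyVector cells, 1835 in KDUNC5B against EmptyVector cells and 1088 in KDNTN1 against KDUNC5B cells. They fell to 1289, 791 and 302 with no filter and to 1462, 1115 and 454 with no variance trend. With the replicate number as a block they were 1465, 1102 and 459. Leaving out single libraries gave 507 to 2769, 680 to 2428 and 34 to 1842, with the fewest without a knock-down library. Members called, 2, 1 and 1 in these comparisons, became 1 in the first with no filter, TMM scaling, no variance trend or the block. In the second they became 2 with TMM or median-of-ratios scaling and 0 with the block, where the limma adjusted p of Flnc was 0.0534 (Actn1 in the first comparison: 0.0861). In the third they became 2 with median-of-ratios scaling. Without single libraries they ranged over 1 to 3, 0 to 3 and 1 to 4. The labels do not say that replicate numbers pair libraries, and deviations of same-numbered libraries correlated at -0.17, 0.16 and -0.45 between pairs of groups. Signs turned only for uncalled members when 1 library was left out. Between KDNTN1 and KDUNC5B cells the log2 fold change of Acta2 then ranged from -0.562 to 0.165 and that of Tagln from -0.233 to 0.441. Between KDNTN1 and EmptyVector cells, Tpm1 ranged from -0.036 (-0.033 without EmptyVector library 1) to 0.076, and Tpm2 from -0.232 to 0.035. Between KDUNC5B and EmptyVector cells, Actn1 ranged from -0.045 (-0.021 without KDUNC5B library 2) to 0.154 and Flna from -0.106 to 0.066. Over all alternatives, the calls of members were kept 38 times and lost 14 times, and those of other named genes were kept 751 times and lost 237 times, with 0 turned signs. A group left with a lone library was assumed to vary like the others. Apart from fewer libraries or more genes tested, the cause was not tested. Depth limits Acta2, Cnn1 and Myl9, at an estimated 0 to 18 reads per library.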

Other observations

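Tnnt2, the troponin T gene of heart and fetal muscle, stood out among skeletal and cardiac muscle markers. It had 3460 and 3850 scaled reads in KDNTN1 cells, 2826 and 2685 in KDUNC5B cells and 3256 and 4109 in EmptyVector cells, while Myod1, Myog, Myh3, Actn2 and Actc1 were at 0 in all 6 libraries. Both KDUNC5B libraries lay below the others, at a log2 fold change of -0.41 against EmptyVector cells that did not pass the test (limma adjusted p = 0.0925). No annotated exon of another gene overlaps Tnnt2. It was named after its values were seen.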
